A study of Mus musculus with 12 samples.

Results

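The CatSper genes encode the subunits of the calcium channel of the sperm tail, and 9 of them were measured here in testes of Topaz1-/- (KO) and wildtype (WT) mice of strain C57Bl/6N. The members were Catsper1, Catsper2, Catsper3, Catsper4, Catsperb, Catsperd, Catsperg1, Catsperg2 and Catsperz, taken by symbol or earlier name from the annotation of the array. They had 11 probes and made up 9 of the 19057 genes with a named probe among 45281 probes. Each gene is given by its probe of highest mean over the 12 arrays. Testes were taken at 20 days after birth (P20) or 15 days after birth (P15), and total RNA of each sample went on 1 Illumina bead array. The 4 groups were KO P20, WT P20, KO P15 and WT P15, with 3 arrays each that are labelled biological repeats. Nothing in the labels says how the Topaz1 allele was made, and no probe was named Topaz1 by symbol, earlier name or accession, so the targeted gene could not be checked.

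CatSper is the principal calcium channel of the sperm flagellum, and calcium entry through it drives the hyperactivated beat that mouse sperm need to fertilise. Catsper1, Catsper2, Catsper3 and Catsper4 are the 4 pore-forming subunits, which assemble into one pore. The auxiliary subunits beta, gamma and delta (Catsperb, Catsperg1 and Catsperg2, Catsperd) carry large parts outside the cell, and zeta (Catsperz) is a small cytoplasmic subunit that helps the channel form its rows along the tail. Their genes are transcribed in the germ cells of the testis during or after meiosis, long before the protein works in sperm. Topaz1 is a germ cell gene whose loss stops mouse spermatogenesis in meiosis.

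Values are log2 of the quantile-normalized intensity plus 50, without background subtraction, so fold changes of dim probes are understated. A probe counted as above background over 7.53 on this scale, an intensity of 135.2, which by the normalization held for 49.5% of the probes on an array. The arrays' raw medians ranged from 128.2 to 143.4 intensity units. A call is an adjusted p under 0.05 in limma after Benjamini-Hochberg adjustment over all probes, and p-values measure the spread between these arrays. In a whole testis, fewer cells of a type and less RNA per cell cannot be told apart. On KO P20 replicates 1 and 3 the epididymal defensin gene Defb2 stood at 10.83 and 11.14, against 7.50 on KO P20 replicate 2 and 7.43 to 8.62 on the WT P20 arrays. Adam7, also of the epididymis list, stood at 8.66 and 9.08 on these arrays, against 7.46 on KO P20 replicate 2 and 7.39 to 7.70 in WT P20. Cst11 of the list was lower in KO P20 (7.78 to 7.86) than in WT P20 (7.90 to 7.97). The mean over the 10 epididymis genes was 7.48 to 8.02 on the KO P20 arrays and 7.46 to 7.63 on the WT P20 arrays. Above background on no array were 6 of the 10 in KO P20 and 7 of the 10 in WT P20. The adipocyte hormone gene Adipoq was 8.78, 9.02 and 8.87 in KO P20 and 7.49, 7.52 and 7.85 in WT P20, and the mean over the 6 measured adipocyte genes was 7.83 to 8.00 in KO P20 and 7.45 to 7.60 in WT P20. Without KO P20 replicates 1 and 3, only replicate 2 was left in that group, and the KO minus WT value of Catsperd at P20 was 0.85. A fit with a single KO P20 array cannot show whether the lack of calls depends on the other arrays. The part of adipocyte RNA in the values was not tested.

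No CatSper gene differed between KO and WT past the threshold at either age, whereas 5 of the 9 rose between P15 and P20 in both genotypes. In WT the fifth, Catsperb, was called at an adjusted p of 0.0489 in limma and lost the call under 19 of 25 other settings, which leaves 4. At P20, 0 of 9 members were called between KO and WT in limma, where 1.41% of all genes were called, and 4 of 9 had an unadjusted p under 0.05, where 15.2% of all genes did. At P15, 0 of 9 were called, where 0.00525% of all genes were called, and 0 of 9 had an unadjusted p under 0.05, where 8.72% of all genes did. The pore gene Catsper2 and the auxiliary genes Catsperb, Catsperd, Catsperg2 and Catsperz were the 5 that rose with age, where 13.5% of all genes rose in KO and 11.2% rose in WT. Catsperz had the highest fold of the 9, 55.7-fold in KO and 36.9-fold in WT.

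**Figure D1:**
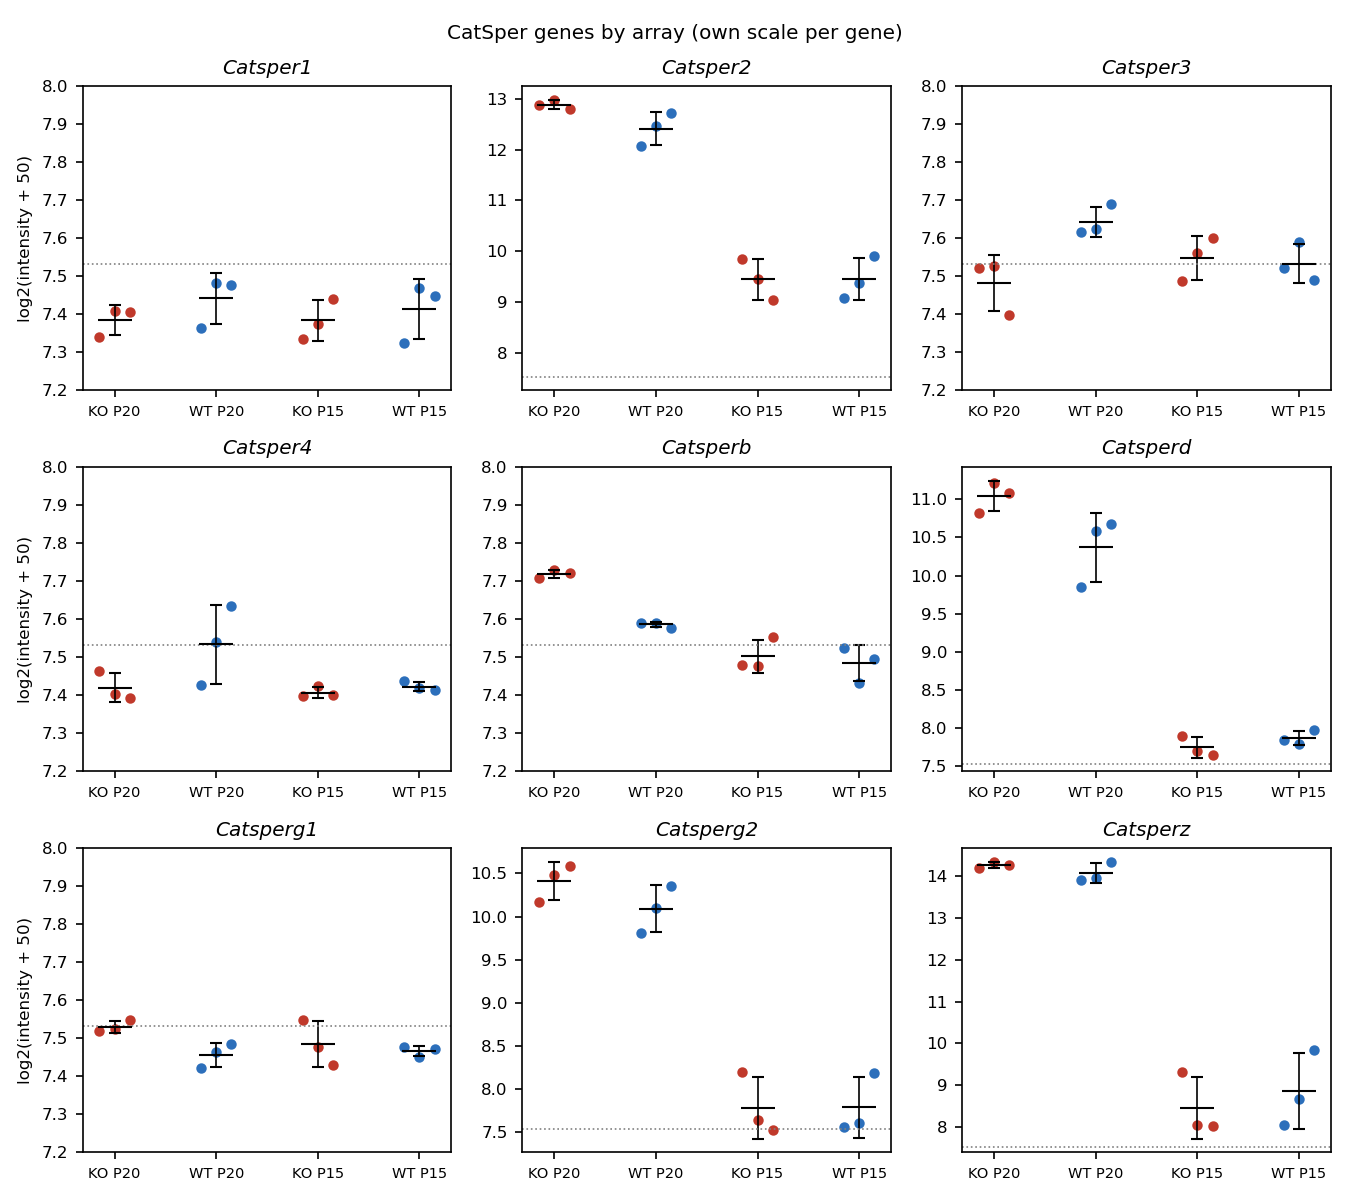
Log2(intensity + 50) of the 9 CatSper genes on the 12 arrays, one panel per gene with its own vertical scale. Points are arrays in the order KO P20, WT P20, KO P15 and WT P15 (red KO, blue WT), bars are the mean and SD of 3 arrays, and the dotted line is the background threshold of 7.53. Catsper2, Catsperd, Catsperg2 and Catsperz stand far above their P15 values in both P20 groups, while the other 5 stay between 7.3 and 7.8 throughout.

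The upstream sequences of members are shown because 5 genes of one channel rose over the same interval while 4 were not called. RefSeq promoters (GRCm38.p6) were at hand for 7 of the 9 members, with 9 listed starts. The runs shown are the 250 bases before a listed start, 5′ to 3′ on the gene's strand, for 3 genes that rose (for Catsperd, the first of 2 listed starts): Catsper2 at chr2:121413793-121414042 (minus strand), Catsperd at chr17:56626797-56627046 (plus strand) and Catsperz at chr19:6925381-6925630 (minus strand). The Catsper2 window lies wholly and the Catsperd window partly inside the listed span of its gene. Capitals mark TGACG, the core of the cyclic AMP response element, on either strand (CGTCA on the other).
Catsper2: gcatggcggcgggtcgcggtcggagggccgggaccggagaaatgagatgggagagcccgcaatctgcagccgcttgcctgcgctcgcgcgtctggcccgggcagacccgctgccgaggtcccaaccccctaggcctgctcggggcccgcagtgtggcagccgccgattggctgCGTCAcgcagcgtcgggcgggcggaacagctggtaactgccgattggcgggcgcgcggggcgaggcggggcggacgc
Catsperd: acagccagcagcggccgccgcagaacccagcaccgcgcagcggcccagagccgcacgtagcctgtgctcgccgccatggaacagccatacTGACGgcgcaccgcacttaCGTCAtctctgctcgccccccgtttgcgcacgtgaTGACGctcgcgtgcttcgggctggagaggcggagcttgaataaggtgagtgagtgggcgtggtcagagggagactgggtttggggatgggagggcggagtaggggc
Catsperz: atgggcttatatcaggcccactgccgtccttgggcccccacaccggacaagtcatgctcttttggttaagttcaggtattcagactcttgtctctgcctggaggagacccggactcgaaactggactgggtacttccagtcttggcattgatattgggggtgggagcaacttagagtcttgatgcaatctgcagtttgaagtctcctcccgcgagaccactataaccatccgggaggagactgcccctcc
The Catsper2 window held 1 TGACG core, with its first base at −77 from the listed start, and was 74.8% G and C with 35 CpG dinucleotides. The Catsperd window held 3 cores, at −160, −141 and −106, with 66.8% G and C and 25 CpG dinucleotides, while the window of its other listed start held 0 cores, with 52.8% and 11. The Catsperz window held no core and was 54% G and C with 7 CpG dinucleotides, while that of Catsperb, which also rose, had 38% and 1. The windows of the genes that were not called with age had 2 CpG dinucleotides for Catsper3, 1 for Catsper4, and 5 and 7 for the starts of Catsperg1. The core was in 2 of the 9 member windows. In the same 250 bases of all 32851 promoters, 17.8% held at least 1 TGACG core on either strand and 0.688% held 3 or more, and the medians were 52.4% G and C and 6 CpG dinucleotides. The full element TGACGTCA, which contains the core, was in 0 of the 9 member windows and in 1.55% of all promoters. The RFX X-box was in 1 of the 9 windows, a start of Catsperg1, and in 0.496% of all promoters. The MYB core was in 1 of the 9 windows as AACGG (14.5% of all promoters) and in 5 of the 9 as AACTG (39.1%). The motifs were chosen after the sequences had been seen, and a match is not evidence of binding.

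At P20 the KO values of 4 members lay above every WT value and those of 1 lay below, without a call. The members above were Catsper2, Catsperb, Catsperd and Catsperg1, 4 of 9, where 10.7% of all genes had every KO array above every WT array, and the member below was Catsper3, 1 of 9, where 9.95% of all genes had every KO array below. Of the 9 differences 6 were positive and 3 were negative, with a median of 0.13 on the log2 scale, against a median of 0.00 over all genes. All 5 auxiliary genes were positive, from 0.07 to 0.67, and 3 of the 4 pore genes were negative, of which Catsper1 turned to 0.0035 with 75th percentile scaling. The 3 negative ones were Catsper1, Catsper3 and Catsper4, whose probes were at or near background.

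Among the pore genes, Catsper2 was the only one well above background. It stood at 12.87, 12.98 and 12.80 in KO P20 and at 12.07, 12.46 and 12.71 in WT P20. In the younger testes it stood at 9.85, 9.44 and 9.04 in KO P15 and at 9.09, 9.37 and 9.90 in WT P15. The P20 groups did not overlap, although the highest WT array came close to the lowest KO array, and the P15 groups overlapped fully. The P20 difference was 0.47 ± 0.24 (SE, n = 3 each; 95% interval −0.07 to 1.02; adjusted p = 0.504 in limma), and at P15 it was −0.01 ± 0.24 (adjusted p = 0.998 in limma).

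Catsper3 lay at the background threshold. It read 7.52, 7.53 and 7.40 in KO P20 and 7.62, 7.62 and 7.69 in WT P20. In P15 testes it read 7.49, 7.56 and 7.60 in KO and 7.52, 7.59 and 7.49 in WT. All 3 WT P20 arrays and none of the KO P20 arrays were above background. The P20 difference was −0.16 ± 0.05 (SE, n = 3 each; adjusted p = 0.16 in limma), and the second probe of the gene gave −0.08 ± 0.03 (adjusted p = 0.359 in limma). Catsper4 passed the background threshold on no array but 2 from WT P20, with 7.46, 7.40 and 7.39 in KO P20 and 7.43, 7.54 and 7.63 in WT P20. Its groups overlapped, and the difference was −0.11 ± 0.05 (SE, n = 3 each; adjusted p = 0.353 in limma). Catsper1 was above background on none of the 12 arrays, ranging from 7.34 to 7.41 in KO P20 and from 7.36 to 7.48 in WT P20, so that its probe gave only an upper bound on the level.

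Among the auxiliary genes, Catsperd had the highest KO over WT value at P20. It stood at 10.83, 11.22 and 11.08 in KO P20 and at 9.85, 10.58 and 10.68 in WT P20. In P15 testes it stood at 7.90, 7.70 and 7.64 in KO and at 7.84, 7.80 and 7.97 in WT. The P20 groups were separate, with WT P20 replicate 1 the lowest, and the P15 groups overlapped. KO was 1.59-fold over WT at P20 (log2 0.67 ± 0.19, SE, n = 3 each; 95% interval 0.25 to 1.09; adjusted p = 0.151 in limma). The KO effect at P20 minus that at P15 was 0.79 ± 0.27 (adjusted p = 0.528 in limma). Without WT P20 replicate 1 the P20 value was 0.41.

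Catsperb was dim and tight between arrays. It read 7.71, 7.73 and 7.72 in KO P20 and 7.59, 7.59 and 7.58 in WT P20. In P15 testes it read 7.48, 7.48 and 7.55 in KO and 7.53, 7.43 and 7.50 in WT. Every P20 array was above background, and the KO P20 arrays were all above the WT P20 arrays. The difference was 0.13 ± 0.03 (SE, n = 3 each; 95% interval 0.06 to 0.20), with the lowest adjusted p of the 9 at P20, 0.0934 in limma. The brightest probes of Catsperb and of Catsperg1 are annotated through a cDNA clone and not through a RefSeq transcript.

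The gamma genes Catsperg1 and Catsperg2 are closely related paralogs on chromosome 7, and whether the probe of one also reads the other's transcript was not tested. Catsperg2 stood at 10.17, 10.49 and 10.59 in KO P20 and at 9.81, 10.10 and 10.36 in WT P20. In P15 testes it stood at 8.19, 7.63 and 7.52 in KO and at 7.56, 7.60 and 8.19 in WT. The groups overlapped at both ages, and the P20 difference was 0.33 ± 0.22 (SE, n = 3 each; adjusted p = 0.655 in limma). Catsperg1 read 7.52, 7.52 and 7.55 in KO P20 and 7.42, 7.46 and 7.48 in WT P20, a difference of 0.07 ± 0.03 (adjusted p = 0.419 in limma) at the level of background.

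Catsperz gave strong signal at P20 in both genotypes. It stood at 14.20, 14.33 and 14.27 in KO P20 and at 13.91, 13.96 and 14.34 in WT P20. In P15 testes it stood at 9.31, 8.05 and 8.02 in KO and at 8.06, 8.68 and 9.85 in WT. The genotypes overlapped at both ages, and the P20 difference was 0.19 ± 0.43 (SE, n = 3 each; 95% interval −0.77 to 1.16; adjusted p = 0.925 in limma). The interval leaves room for a difference in either direction.

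**Figure D2:**
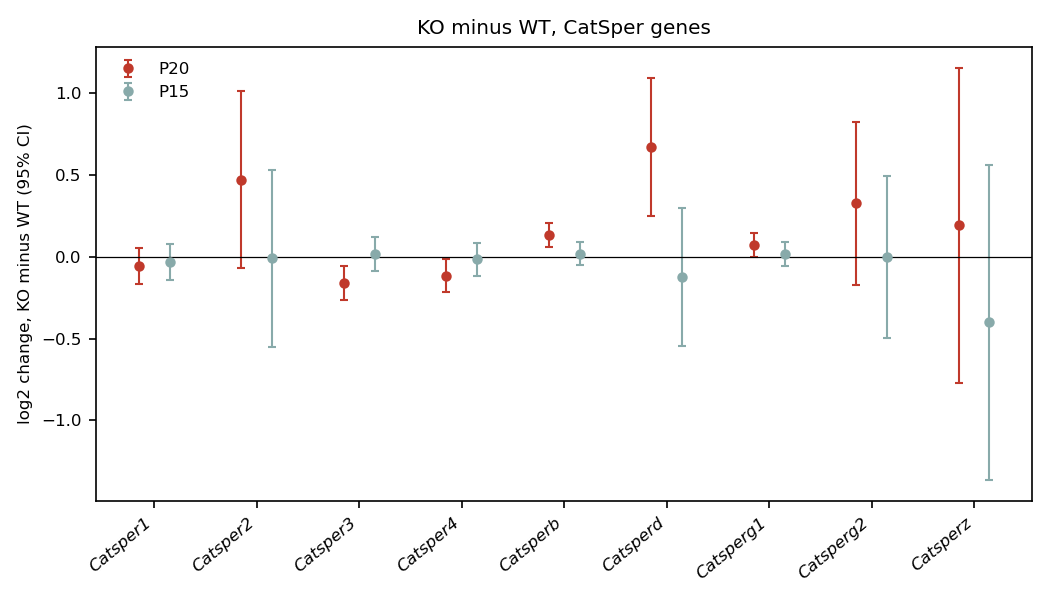
KO minus WT on the log2 scale for each CatSper gene at P20 (red) and at P15 (grey), with 95% intervals from limma and 3 arrays per group. At P20 the auxiliary genes lie above 0 and Catsper1 (0.0035 with 75th percentile scaling), Catsper3 and Catsper4 below it. The P20 intervals of Catsper1, Catsper2, Catsperg1, Catsperg2 and Catsperz include 0, and no value passed the adjusted threshold at either age.

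WT P20 replicate 1 was the lowest of the 3 WT P20 arrays for Catsper2, Catsperd, Catsperg2 and Catsperz alike. Without it the P20 differences were 0.30 for Catsper2, 0.19 for Catsperg2 and 0.12 for Catsperz. Without WT P20 replicate 3, the highest of the 3 for these 4 genes, they were 0.62 for Catsper2, 0.82 for Catsperd, 0.46 for Catsperg2 and 0.33 for Catsperz. Markers of germ cell stages were set beside these values. The mean over 10 pachytene spermatocyte genes was 11.04 to 11.05 on the KO P20 arrays and 10.70 to 10.98 on the WT P20 arrays. Of these 10, 7 were above background on all arrays of a group. Only 1 of the 10 was called between KO and WT at P20, where 1.41% of all genes were called. This was Ovol1, a transcription factor gene of pachytene cells, higher in KO by 0.41 (adjusted p = 0.0397 in limma). The mean over the 9 measured round spermatid genes was 7.57 to 7.60 in KO P20 and 7.63 to 7.88 in WT P20. Above background on no array were 2 of these 9 in KO P20 (the acrosomal gene Acrv1 and the transition protein gene Tnp2) and 2 of the 9 in WT P20 (Tnp2 and the protamine gene Prm1), while Odf1, Spaca1, Tssk6 and Izumo1 were above it on all 3 arrays of both groups. Their means in KO P20 and WT P20 were 7.62 and 8.22, 7.92 and 8.37, 7.69 and 7.66, and 7.60 and 7.72. Every KO array was below every WT array for 3 of the 9 (9.95% of all genes) and above for 1 (10.7%), and 0 of the 9 were called. The mean over 7 Sertoli cell genes was 10.53 to 10.65 in KO P20 and 10.85 to 10.98 in WT P20. All 7 differences were negative, with a median of −0.34, and 1 of the 7 was called, where 1.41% of all genes were called. Every KO array was below every WT array for 4 of the 7 (9.95% of all genes) and above for 0 (10.7%). The part of these cell types in the CatSper values was not tested.

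The KO effect did not differ between the ages past the threshold for any member. The difference of the effects was called for 0 of 9 members in limma, where 0.0735% of all genes were called. An unadjusted p under 0.05 was found for 3 of 9 (Catsper3, Catsperb and Catsperd) and for 8.89% of all genes. For Catsper3 it was −0.18 (adjusted p = 0.584) and for Catsperb 0.11 (adjusted p = 0.643), both in limma.

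All calls among the members came from the step between P15 and P20. Catsper2 rose 10.9-fold in KO (log2 3.44 ± 0.24, SE, n = 3 each; adjusted p = 4.43e-06 in limma) and 7.77-fold in WT (adjusted p = 2.01e-05). Catsperd rose 9.82-fold in KO (log2 3.30 ± 0.19; adjusted p = 1.09e-06 in limma) and 5.66-fold in WT (adjusted p = 1.1e-05). Catsperg2 rose 6.22-fold in KO (log2 2.64 ± 0.22; adjusted p = 1.46e-05 in limma) and 4.95-fold in WT (adjusted p = 5.57e-05). For each of these genes every P20 array was above every P15 array of its genotype.

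Catsperz rose by 5.80 ± 0.43 in KO and by 5.21 ± 0.43 in WT on the log2 scale (adjusted p = 6.28e-06 in KO and 2.12e-05 in WT, limma). Its second probe rose by 3.88 in KO and by 3.61 in WT. Catsperb rose by 0.22 ± 0.03 in KO (adjusted p = 0.000579 in limma) and by 0.10 ± 0.03 in WT (adjusted p = 0.0489), and the WT rise was at least 1.04-fold because no WT P15 array was above background. With background correction (normexp, offset 16) the log2 rises were larger for dim genes, 4.73 for Catsperd, 4.07 for Catsperg2 and 0.77 for Catsperb in KO.

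The other 4 members were not called with age. Catsper1, Catsper3, Catsper4 and Catsperg1 changed by −0.07 to 0.05 in KO and by −0.01 to 0.11 in WT. Catsper4 at 0.11 in WT had an adjusted p of 0.135 in limma, and 0.0131 without WT P20 replicate 1. For these genes P20 values were at or near background, where the array gives little information on a change. Kcnk4, a potassium channel gene that shares an earlier name with Catsperz, was near background on every array (7.34 to 7.55).

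**Figure D3:**
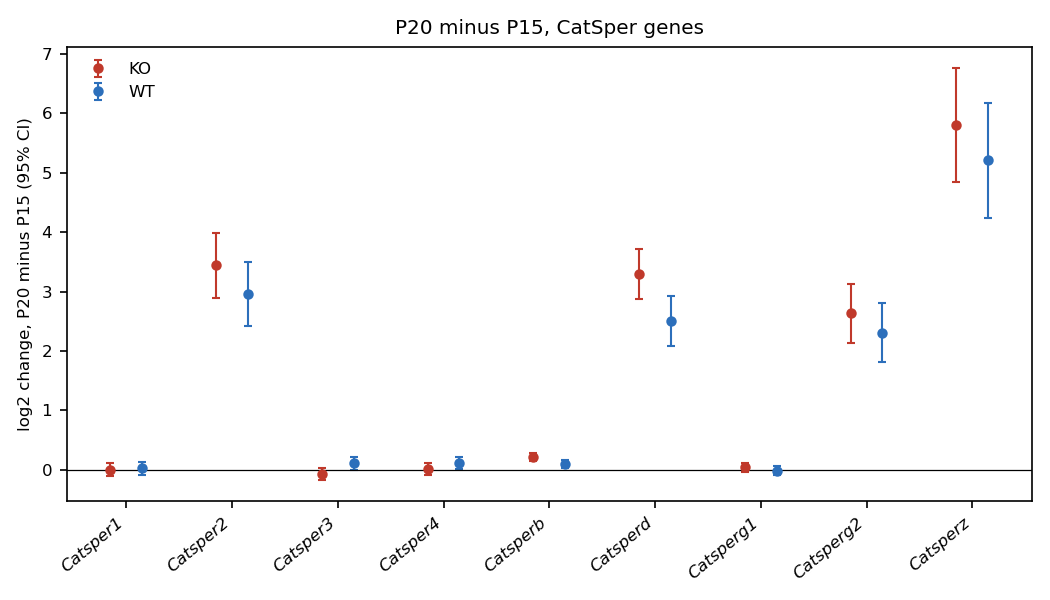
P20 minus P15 on the log2 scale for each CatSper gene in KO (red) and WT (blue), with 95% intervals from limma and 3 arrays per group. Catsperz (5.80 in KO, 5.21 in WT), Catsper2, Catsperd and Catsperg2 stand at 2.31 or more in both genotypes, and the others at 0.22 or less.

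At P15 the arrays of one genotype were further apart than the means of the genotypes for every member. KO P15 replicate 1 and WT P15 replicate 3 were the highest of their groups for Catsper2, Catsperd, Catsperg2 and Catsperz, and not for the other members. The piRNA-pathway gene Piwil1 had 11.46, 9.72 and 9.85 in KO P15 and 9.22, 10.54 and 11.67 in WT P15. The pachytene chaperone gene Hspa2 had 13.58, 12.84 and 12.54 in KO P15 and 12.31, 12.85 and 13.65 in WT P15. The same 2 arrays were highest for both, and for the germ cell lactate dehydrogenase gene Ldhc. Of the other pachytene genes listed, this held for Adam3, Pgk2 and Acr, and not for Ovol1, Tbpl1, Sycp3 and Spag6. Ovol1 had 7.88, 7.89 and 7.93 in KO P15 and 7.87, 7.94 and 7.90 in WT P15. The P15 difference of Catsperz was −0.40 ± 0.43 (SE, n = 3 each; adjusted p = 0.902 in limma), 0.09 without WT P15 replicate 3 and −0.83 without KO P15 replicate 1. The mean over the 10 pachytene genes was 8.47 to 9.08 on the KO P15 arrays and 8.42 to 9.18 on the WT P15 arrays, and its part in the P15 values was not tested.

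**Figure D4:**
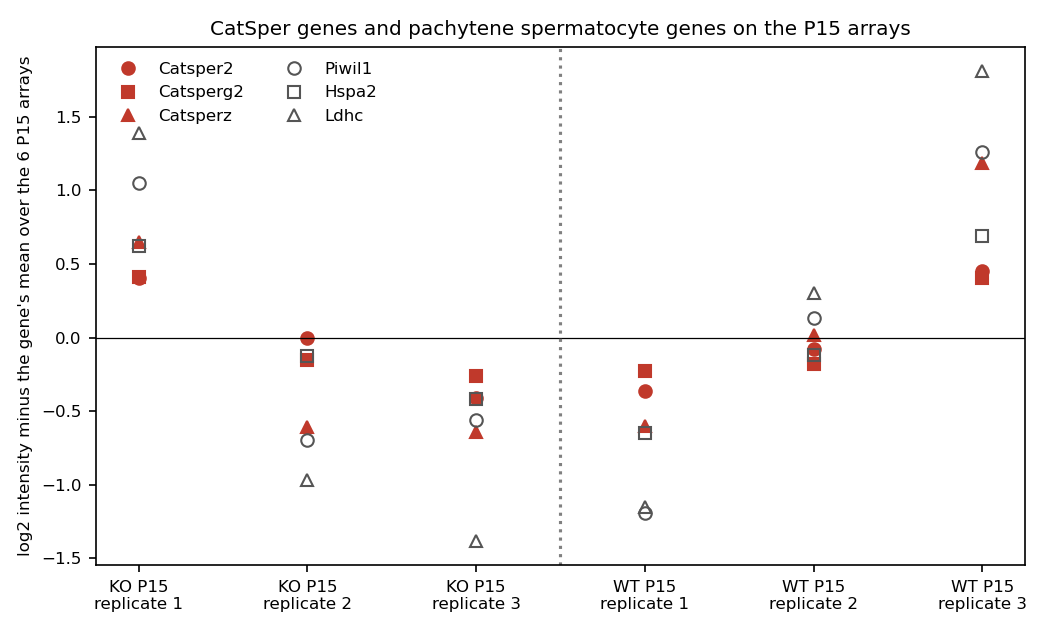
Deviation of each P15 array from the gene's mean over the 6 P15 arrays (log2 scale) for Catsper2, Catsperg2 and Catsperz (filled) and the pachytene genes Piwil1, Hspa2 and Ldhc (open), with KO arrays left of the dotted line and WT arrays right of it. KO P15 replicate 1 and WT P15 replicate 3 are above the mean for all 6 genes. Catsperd, for which the same arrays were the highest of their groups, is not drawn.

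Of 9 further subunits and partners of the channel, 6 were measured. The cytoplasmic partner gene C2cd6, whose protein helps carry the channel into the tail, had 12.49, 12.66 and 12.19 in KO P20 and 11.44, 11.92 and 11.92 in WT P20. The ubiquitin ligase gene Trim69 had 11.92, 12.06 and 11.99 in KO P20 and 10.99, 11.46 and 11.89 in WT P20. For both genes the KO arrays lay above the WT arrays, by 0.68 ± 0.22 for C2cd6 (adjusted p = 0.217 in limma) and by 0.54 ± 0.18 for Trim69 (adjusted p = 0.22), without a call. Both rose with age, C2cd6 by 4.45 in KO and 3.73 in WT, and Trim69 by 4.38 in KO and 3.75 in WT. Averaged over its probes, C2cd6 rose by 1.75 in KO and 1.41 in WT.

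Efcab9, the calcium-binding partner of zeta, read 7.91, 7.96 and 7.79 in KO P20 and 7.85, 8.02 and 8.25 in WT P20, and the genotypes overlapped. With age it rose in WT by 0.38 (adjusted p = 0.00969 in limma), and in KO its value of 0.20 was not called (adjusted p = 0.131). The difference of the KO effects was −0.18 (adjusted p = 0.845 in limma), so the rise was not shown to differ between the genotypes. Catspere2, Tmem262 and Slco6c1 stayed between 7.34 and 7.56 on all arrays. In all, 2 of the 6 rose with age in KO and 3 of the 6 rose in WT, where 13.5% of all genes rose in KO and 11.2% in WT. Between KO and WT 0 of the 6 were called at P20, where 1.41% of all genes were called, and 0 of the 6 at P15, where 0.00525% were.

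Of 32 genes of sperm ion transport and cyclic AMP signalling, 28 were measured. At P20, 1 of the 28 was called as lower in KO than in WT and none as higher, where 1.41% of all genes were called. This was Plcd4, a phospholipase C gene, with 8.03, 7.95 and 8.04 in KO P20 and 8.55, 8.73 and 8.69 in WT P20. KO was 1.57-fold below WT (log2 −0.65 ± 0.06, SE, n = 3 each; adjusted p = 0.00123 in limma), and averaged over its probes the difference was −0.26. The polycystin-family channel gene Pkd2l1, named here after its values were seen, had 11.27, 11.03 and 11.17 in KO P20 and 10.35, 10.54 and 10.52 in WT P20 (log2 0.69 ± 0.14; adjusted p = 0.0557 in limma). At P15 0 of the 28 were called, and the 2 brightest, the protein kinase A genes Prkar1a and Prkaca, differed by 0.02 and −0.14.

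With age 7 of the 28 rose and 5 fell in KO, where 13.5% of all genes rose and 21.6% fell. In WT 8 of the 28 rose and 2 fell, where 11.2% of all genes rose and 16.5% fell. The calcineurin subunit gene Ppp3r2 rose by 4.53 in KO and 4.41 in WT. The sperm sodium-proton exchanger gene Slc9c1 rose by 4.18 in KO and 3.94 in WT. The soluble adenylyl cyclase gene Adcy10 rose by 2.45 in KO and 2.21 in WT. Pkd2l1 rose by 1.94 in KO and 1.14 in WT, and the calcineurin catalytic gene Ppp3cc rose by 1.51 in KO and 1.32 in WT. Averaged over their probes, Slc9c1 rose by 2.08 in KO and 1.96 in WT, and Ppp3cc by 0.70 in KO and 0.62 in WT. Plcd4, lower in KO at P20, also rose with age in both genotypes, by 0.47 in KO and 1.06 in WT. Averaged over its probes, Plcd4 rose by 0.17 in KO and 0.42 in WT.

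The 6 members above background on all arrays of at least 1 group (Catsper2, Catsper3, Catsperb, Catsperd, Catsperg2 and Catsperz) were averaged as z-scores and compared with 19048 other genes. In this mean each member had the same weight. The dim genes Catsper3 and Catsperb entered it only through WT P20 and only through the P20 groups, respectively. The 5 genes most like this mean over the 12 arrays were Rimbp3, Papolb, Ttc41, Mzt2 and Hoxd3os1, each with a Pearson correlation of 0.997. These points form 2 clusters by age, so a correlation mostly measures the step in age, and 7.44% of the genes were above 0.9. Within the 6 P15 arrays the 5 correlations were 0.27 to 0.73, and within the 6 P20 arrays they were 0.87 to 0.98. The arrays share their normalization.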

How the data were processed

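Total RNA of 12 testis samples (3 per group) was hybridised to bead arrays, per the labels' protocols. Arrays were read with BeadStudio, per the submitters' processing notes, whose version is not stated. The authors deposited linear intensity values before and after normalization. Quantile normalization of the first set matched the deposited normalized values within 0.0124 on the log2 scale. The intensities were quantile-normalized, 50 was added and log2 was taken. Deposited columns of other samples: 0. No detection p-values or control probes were used.

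Background was the mode of the log2 intensity plus 1.645 times a spread, the root mean square distance from the mode of the values below it. One fit of 4 group means was made with limma 3.58.1 in R 4.3.3 (two-sided, Benjamini-Hochberg over 45281 probes). The procedure was tested on simulated data. The array annotation gave 34885 probes 1 gene, 18 several and 10378 none. Intensity limits the precision, and 3 arrays per group can miss small changes.

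The members and gene lists were chosen with earlier results of these data known. All members and all measured partners are named, of the signalling list up to 4 called genes per comparison by size (otherwise the 2 brightest), and the 5 genes most correlated. The labels do not say whether replicate numbers pair the samples. Deviations of same-numbered replicates correlated at −0.36 to 0.20 over all comparisons, and at 0.08 to 0.14 between WT P20 and WT P15. With 3 arrays per group this cannot settle whether the numbers mark pairs, so a replicate block was run as an alternative. Other alternatives were array weights, gene means, other scalings, offsets and background corrections, a variance trend, a filter on low intensity, and fewer arrays. Promoters are from RefSeq (GRCm38.p6).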

Additional observations from a re-analysis of the deposited data

How the results depend on the processing

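The counts of called CatSper genes kept their side of every comparison under each setting with more than a single array per group. They were 0 at P15, at P20 and for the difference of the KO effects, and 4 or 5 with age. These counts were out of 9 members, or out of 6 with the filter on low intensity. Over 1551 values of named genes under other settings, 1497 kept direction and call, 19 lost a call (all of them Catsperb with age in WT, adjusted p up to 0.179), 1 gained one (Catsper4 with age in WT) and 34 turned sign. Genes other than the members were counted only in comparisons where they were called before any setting was changed. The turned values were of members without a call in the comparison concerned. KO against WT at P15 gave 0.029 for Catsperd and 0.18 for Catsperg2 with cyclic loess, and 0.10 for Catsper1, 0.11 for Catsper4 and 0.10 for Catsperg2 with 75th percentile scaling, which moved the median of all probes by 0.11. With array weights it gave 0.071 for Catsper2, −0.0050 for Catsper3 and 0.074 for Catsperg2. With 75th percentile scaling Catsper1 at P20 was 0.0035, the difference of the effects for Catsperg1 was −0.0097 and the age change of Catsperg1 in WT was 0.061. With cyclic loess the age change was −0.0015 for Catsper1 in KO and 0.0013 for Catsperg1 in WT, and without KO P20 replicates 1 and 3 that of Catsper4 in KO was −0.0052.

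Leaving out 1 array at a time, the P15 difference ran from −0.21 to 0.20 for Catsperg2, −0.21 to 0.22 for Catsper2, −0.0098 to 0.047 for Catsper3, −0.013 to 0.046 for Catsperg1, −0.0078 to 0.039 for Catsperb and −0.83 to 0.092 for Catsperz. The difference of the effects for Catsper1 ran from −0.066 to 0.018. The age change ran from −0.023 to 0.030 for Catsper1 and −0.0097 to 0.025 for Catsper4 in KO, and from −0.024 to 0.0070 for Catsperg1 and −0.017 to 0.067 for Catsper1 in WT. The cause of these turns was not tested.

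Over all probes, 472 were called at P20, against 267 with a replicate block, 905 with array weights, 298 with normexp at offset 16, and 158 to 619 leaving out 1 array. At P15 2 probes were called, 0 to 8 under the other settings and 1 to 150 leaving out 1 array. For the difference of the effects 25 were called, and 1 to 69 under other settings. With the replicate block 0 CatSper genes were called at P15 and at P20, 5 with age in KO and 4 with age in WT.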
